A study of Mus musculus with 56 samples.

Results

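The immediate early transcription factors and their neighbours in name were followed through oleic acid (OA) lung injury in the mouse on MUSV29K nylon microarrays, which carry spotted cDNA clones hybridised with 33P-labelled cDNA. The clones were taken by gene symbol, as those beginning with Fos, Jun, Egr, Ier, Nr4a, Klf, Atf, Cebp, Btg or Zfp36 (with a digit where the family is numbered) or equal to Myc. This gave 40 clones of 30 genes among 7625 named clones of 5883 genes, and the rule reads the symbols alone, although it was set with earlier results of these data known. The name rule is wider than the label of immediate early genes: 16 clones of 13 genes belong to a list of 25 classic immediate early genes, whereas Atf7ip, Zfp364 (now Rnf115) and Zfp367 share only the beginning of a name with a family. Of the 40 clones, 20 (50%) were brighter, on the mean over all mice, than 95% of the empty spots (a log2 signal of 8.90), against 35.2% of the named clones. Of the 16 clones of the classic list 4 passed this level, those of Fos, Ier3, Klf2 and Klf4. All values below are log2 signals after quantile normalization unless a fold is named, and levels of different clones are not compared, since each cDNA hybridises with its own efficiency.

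All mice were C57Bl/6J females of 7 weeks, anesthetized with xylazine and ketamine. OA mice received 20 µl of oleic acid (1.2 µl per g) through the tail vein, and control mice received physiological serum by the same route. RNA came from the whole smallest lung 1 hour (4 OA and 2 serum mice), 1.5 hours (6 and 1), 3 hours (7 and 2), 4 hours (4 OA mice and no serum mouse), 18 hours (3 and 2) or 24 hours (3 and 1) after injection. Following the study, 1 and 1.5 hours are called the early stage (10 OA and 3 serum mice), 3 and 4 hours the intermediate stage (11 OA mice) and 18 and 24 hours the late stage (6 OA mice). These stages follow a clustering that the study made of the same microarrays, so a difference between stages is not independent evidence that stages exist. No uninjected mouse was analysed here. Of 4 clones of lung epithelial markers 3 were brighter than empty spots, with Sftpd, a surfactant protein, at a mean of 13.51.

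Immediate early genes are transcribed within minutes of a stimulus, without new protein synthesis, because the factors at their promoters are already present and need only be phosphorylated. Fos and Jun proteins pair into the AP-1 complex, and Egr and Nr4a proteins are zinc finger and orphan nuclear receptor factors that pass the signal on to secondary genes. Members of the Btg and Zfp36 families restrain the response, Zfp36 proteins by directing messages with AU-rich elements to decay. In injured tissue these genes are known for an abrupt and brief rise.

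Promoters of some members described below are shown first, because immediate early genes are known to be driven by short elements close to their start. For Egr2 and Zfp367 a listed promoter with a match to a searched motif was chosen, and the first listed promoter of each held none. Promoters of other called members, among them Cebpg, Atf4 and Ier3, are not shown. The sequences are RefSeq promoters of GRCm38.p6, printed 5′ to 3′ on the strand of the gene, as the 250 bases before the start of transcription, with matches to the searched motifs in capitals. Fos lies at chr12:85473640-85473889 (plus strand), Zfp36l1 at chr12:80113014-80113263 (minus), Egr2 at chr10:67537619-67537868 (plus, the third of its 5 listed promoters), Zfp367 at chr13:64152374-64152623 (minus, the second of 2) and Klf9 at chr19:23140976-23141225 (plus).
Fos: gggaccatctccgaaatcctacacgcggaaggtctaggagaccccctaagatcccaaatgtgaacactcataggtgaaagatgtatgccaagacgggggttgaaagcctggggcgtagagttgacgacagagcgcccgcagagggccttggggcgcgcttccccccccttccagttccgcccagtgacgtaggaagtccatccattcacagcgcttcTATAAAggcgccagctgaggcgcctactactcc
Zfp36l1: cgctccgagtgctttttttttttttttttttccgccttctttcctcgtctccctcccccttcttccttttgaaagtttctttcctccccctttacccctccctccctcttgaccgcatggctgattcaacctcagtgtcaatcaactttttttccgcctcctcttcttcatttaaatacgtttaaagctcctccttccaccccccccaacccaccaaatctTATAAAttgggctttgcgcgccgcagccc
Egr2: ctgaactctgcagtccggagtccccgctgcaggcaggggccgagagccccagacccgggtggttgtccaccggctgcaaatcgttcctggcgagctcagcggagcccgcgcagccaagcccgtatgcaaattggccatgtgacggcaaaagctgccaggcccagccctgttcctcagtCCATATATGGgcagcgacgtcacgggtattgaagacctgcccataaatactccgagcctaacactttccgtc
Zfp367: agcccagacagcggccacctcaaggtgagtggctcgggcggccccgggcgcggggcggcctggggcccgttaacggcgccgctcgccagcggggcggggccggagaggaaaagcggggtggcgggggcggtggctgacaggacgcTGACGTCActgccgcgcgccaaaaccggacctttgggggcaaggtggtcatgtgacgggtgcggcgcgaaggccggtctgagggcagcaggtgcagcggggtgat
Klf9: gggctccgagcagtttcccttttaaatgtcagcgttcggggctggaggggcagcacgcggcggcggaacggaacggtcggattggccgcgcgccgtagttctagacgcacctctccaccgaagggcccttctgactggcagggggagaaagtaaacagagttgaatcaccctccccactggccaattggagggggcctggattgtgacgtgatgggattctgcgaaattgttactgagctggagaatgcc
In Fos and Zfp36l1 the capitals mark the TATA box (TATAAA), beginning 33 and 29 bases before the start. In Egr2 they mark a CArG box, the binding element of serum response factor, beginning 72 bases before the start, and in Zfp367 a cyclic AMP response element (CRE, TGACGTCA), beginning 105 bases before it. The Klf9 window held none of the searched motifs. Of 30 member genes, 28 matched the RefSeq table by symbol and 2 by an older name, and 25 had a promoter listed, with 32 promoters in all. Searching both strands of windows of 250 bases before and 50 after the start, the CRE was found in 1 of the 32 member promoters and in 1.79% of the 32851 promoters listed. The AP-1 site (TGACTCA) was found in 0 of 32 and in 5.2%, the CArG box in 4 of 32, all of Egr2, and in 1.63%, and the TATA box in 5 of 32 and in 13.6%. Egr2 promoters 3, 4 and 5 overlap and hold the same CArG box. By gene the CArG box was found in 1 of 25. These are matches of letters and not sites of binding.

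The first question was whether the members changed along the OA time course. Along the 6 time points, without subtraction of serum, 3 of the 40 clones changed (limma moderated F test, Benjamini-Hochberg adjusted over all clones), namely Klf9, Klf13 and a clone of Atf7ip. Over all clones tested 2.03% were called. At an unadjusted p under 0.05 the numbers were 9 of 40 members and 1215 of 7625 clones. None of the classic immediate early genes was among the 3, and neither Fos, Ier3, Klf2 nor Klf4 reached an adjusted p under 0.05 (0.78, 0.61, 0.15 and 0.17 in that order). Between 1.5 hours and 1 hour limma called 0 members and 0% of all clones, with 2 members and 284 clones at an unadjusted p under 0.05.

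Klf9, a Krüppel-like factor induced by glucocorticoids and thyroid hormone, was highest at 3 and 4 hours. At 1 hour the 4 OA mice read 9.88, 10.18, 10.20 and 10.55, and at 1.5 hours the 6 mice ran from 9.85 to 10.76 with a median of 10.56. At 3 hours the 7 mice ran from 10.70 to 11.29 with a median of 10.84, and at 4 hours the 4 mice read 10.50, 10.89, 11.14 and 11.28. At 18 hours Klf9 read 9.98, 10.15 and 10.23, and at 24 hours 9.90, 10.19 and 10.62. All 7 mice at 3 hours lay above the 6 mice of the late stage, while the 4 hours mice overlapped both the 1.5 hours and the 24 hours mice. The early stage was below the intermediate stage by a log2 difference of -0.63 ± 0.13 (SE), or 1.54-fold (limma adjusted p = 0.0079), and the late stage was below it by -0.77 ± 0.15, or 1.71-fold (limma adjusted p = 0.00297). The Klf9 serum mice were also high at 3 hours, at 10.09 and 10.62, against 9.19 and 10.23 at 1 hour, 9.76 at 1.5 hours, 9.23 and 9.28 at 18 hours and 9.06 at 24 hours. For serum subtraction, here and below, the serum mean of each time point was subtracted, and that of 3 hours for the 4 hours mice. The Klf9 difference between late and intermediate then turned to 0.42 (limma adjusted p = 0.037). That between early and intermediate was -0.01 (adjusted p = 0.97). The serum means, of 1 or 2 mice each, enter as constants, so their spread is left out and these p-values are too small.

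Klf13, a Krüppel-like factor known for its part in chemokine expression by T cells, fell late. Its 11 intermediate mice ran from 9.98 to 10.50 with a median of 10.16, and its 6 late mice from 9.62 to 9.87 with a median of 9.72, so that these stages did not overlap. The late stage of Klf13 was lower by -0.48 ± 0.09 (SE), or 1.40-fold (limma adjusted p = 0.0013), and the early stage read -0.23 ± 0.07 against the intermediate (limma adjusted p = 0.11). Serum mice of Klf13 ran from 9.57 to 10.42 over all times, and with serum subtraction the late difference was -0.10 (limma adjusted p = 0.44). With the fitted in place of the image signal the late difference of Klf13 was -0.56 and not called (limma adjusted p = 0.055).

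The number after L in the mouse label, for which no source gives a meaning, changed along the time course. The 6 late mice all carry 1, the 11 intermediate mice carry 1 (3 mice), 2 (3 mice) or 3 (5 mice), and the 10 early mice carry 2 (6 mice) or 3 (4 mice). With this number as a block, Klf9 late minus intermediate was -0.99 (limma adjusted p = 0.0087) and Klf9 early minus intermediate was -0.48 (adjusted p = 0.093). With the same block Klf13 late minus intermediate was -0.50 (limma adjusted p = 0.070), and the late calls of Klf3 clone 2 and Fosl2 clone 1, described below, were lost as well.

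Atf7ip encodes a partner of the SETDB1 histone methyltransferase and is no ATF factor, although its name begins with Atf. Its clone 2 had its lowest values at 3 hours, where the 7 mice ran from 7.71 to 8.02 with a median of 7.91. At 1 hour the 4 mice of this Atf7ip clone read 8.44, 8.53, 8.53 and 8.64, above every mouse at 3 and 4 hours. The early stage was higher than the intermediate by 0.50 ± 0.09 (SE, limma adjusted p = 0.0015) and the late stage by 0.43 ± 0.10 (limma adjusted p = 0.016). All these values lie under the level of the empty spots, and the other Atf7ip clone differed by -0.10 and 0.02 in the same comparisons. After serum subtraction the Atf7ip clone 2 differences turned to -0.02 and -0.26, neither called, and with the number after L as a block the late difference was 0.43 at a limma adjusted p of 0.27.

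The pairs of stages were then compared over all members. In early against intermediate, 1 of 40 clones was higher (Atf7ip clone 2) and 1 lower (Klf9), with 1.01% higher and 1.6% lower over all clones. In late against intermediate, 1 was higher (Atf7ip clone 2), with 1.4% over all clones, and 4 were lower (Klf9, Klf13, Klf3 clone 2 and Fosl2 clone 1), with 1.78% over all clones. The median log2 difference of the 40 members was -0.09 in the first comparison and -0.10 in the second, and that of all clones was 0.00 in both. Without mouse P11L1 (18 hours) or without mouse P6L1 (24 hours) the late calls fell from 5 to 3, and without mouse P12L3 (4 hours) or P4L3 (1.5 hours) the early calls rose from 2 to 4. Without the 2 microarrays with an unusual Fos spot, described below, the early calls were 4 and the late calls 6 (172 and 294 of all clones).

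Klf3 is a repressor of the Krüppel-like family with roles in B cell and erythroid development, and Fosl2 is a Fos-related partner of Jun. Klf3 clone 2 ran from 8.86 to 9.76 in the 11 intermediate mice and from 8.59 to 9.22 in the 6 late mice, with overlap, and the late stage was lower by -0.53 ± 0.15 (SE, limma adjusted p = 0.049). This call was lost without any 1 of 21 of the 35 mice and with the number after L as a block (-0.66, limma adjusted p = 0.20), and the brighter Klf3 clone differed by -0.27 in the same direction without being called. Fosl2 clone 1 ran from 8.38 to 9.43 in the intermediate stage and from 8.07 to 8.31 in the late stage, with no overlap, and was lower by -0.74 ± 0.17 (SE, limma adjusted p = 0.018). The second Fosl2 clone, a dim spot, differed by -0.83 and was not called, and the mean of Fosl2 clone 1 (8.63) is itself under the empty-spot level. The call of Fosl2 clone 1 was lost without the 24 hours mouse P8L1 (limma adjusted p = 0.051), with the fitted signal (-0.69, adjusted p = 0.057), with the number after L as a block (-0.85, adjusted p = 0.17) and with serum subtraction (-0.07, adjusted p = 0.80).

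Klf2 and Klf4, flow-responsive factors of the endothelium, did not pass the test of 6 time points. Klf2 had early values of 10.50 to 11.57, intermediate values of 10.16 to 11.18 and late values of 10.66 to 11.51, with an early difference of 0.42 ± 0.14 and a late difference of 0.52 ± 0.16 against the intermediate stage (limma adjusted p = 0.10 and 0.070). Klf4 read 9.61 to 10.53 early, 9.42 to 10.16 in the intermediate stage and 8.94 to 9.90 late. Against the intermediate stage Klf4 differed by 0.39 early and -0.16 late (limma adjusted p = 0.10 and 0.65). Late against early, a comparison not among those planned, Klf4 was lower by -0.55 ± 0.14 (SE, limma adjusted p = 0.0498) and Klf2 differed by 0.10, not called. The late and early mice share no number after L. When the 3 stages replaced the 6 time points in the F test, 7 members were called of 484 clones, adding Klf2 (limma adjusted p = 0.040), Klf4 (0.022), Klf3 clone 2 (0.032) and Fosl2 clone 1 (0.022).

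**Figure D1:**
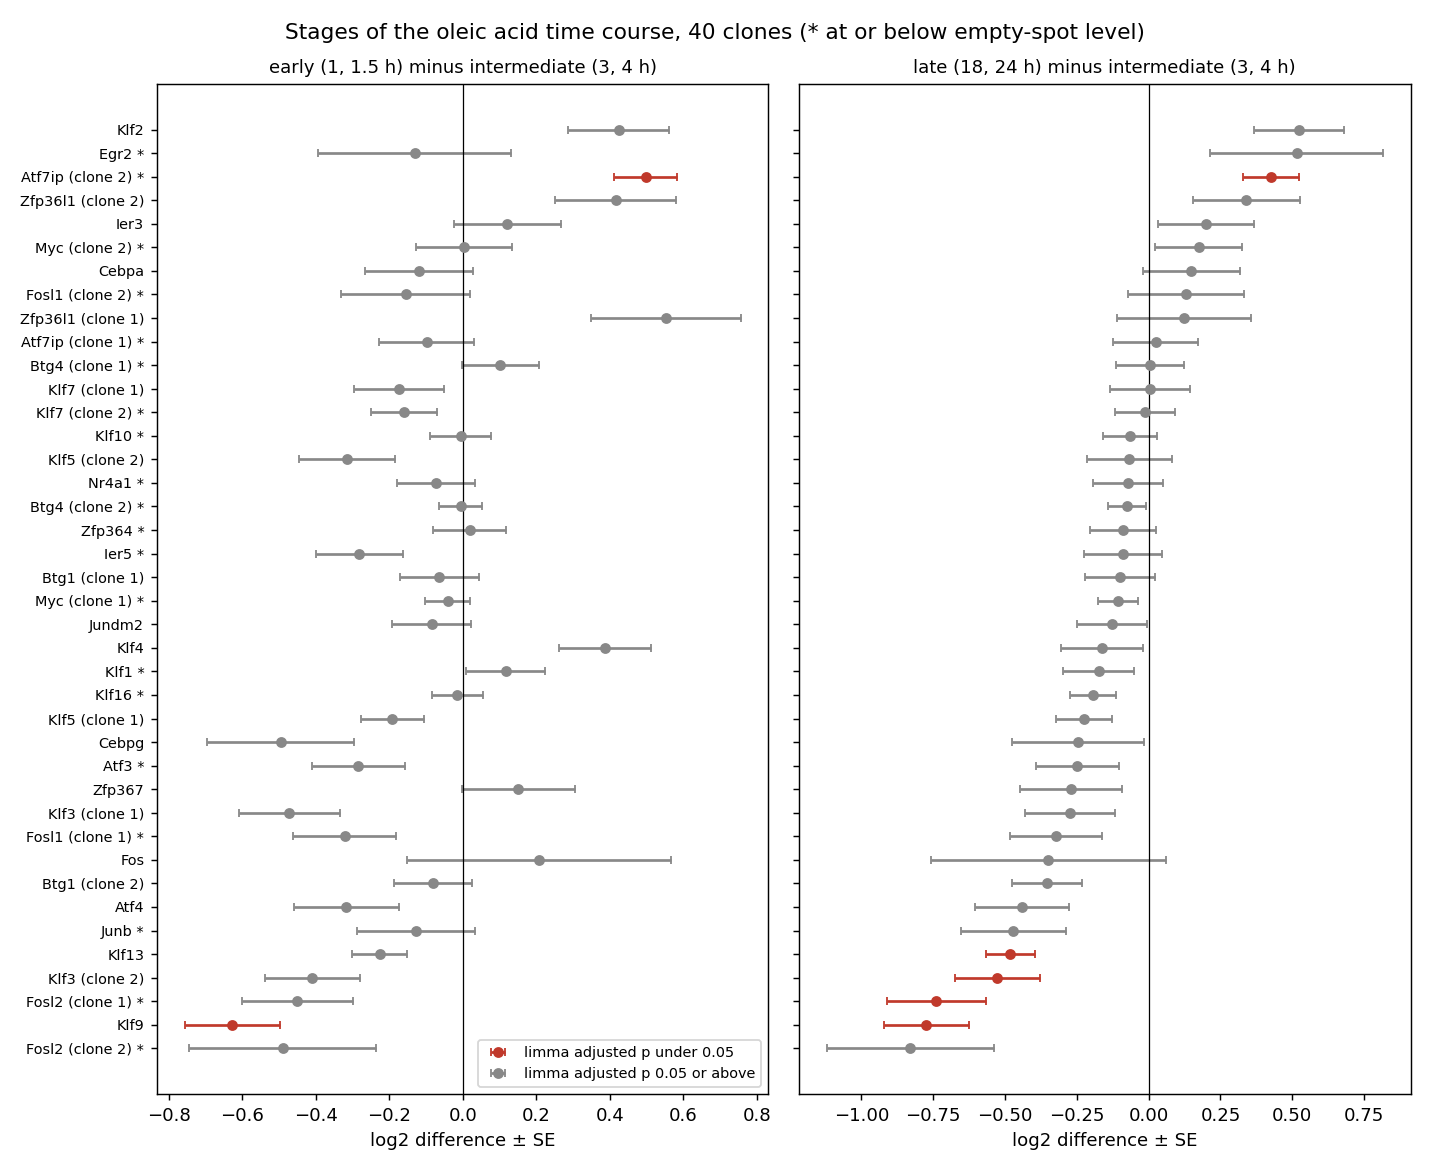
Log2 difference with its standard error for each of the 40 clones, early minus intermediate on the left and late minus intermediate on the right, red where limma called the clone and an asterisk where the clone is at or below the empty-spot level. Klf9 lies at -0.63 and -0.77, and Atf7ip clone 2 is the single red point to the right of 0 in each panel.

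Klf9 was read beside other genes known to respond to glucocorticoids. Of 15 such genes 9 are on the microarray, with 11 clones, 1 of them Klf9. The list was drawn up with earlier results of these data known, so its counts describe these genes and are not independent evidence of their direction. Along the 6 time points 7 of the 11 clones changed (2.03% of all clones), and against the intermediate stage 8 were lower early (1.6% of all clones) and 8 were lower late (1.78%). The median difference of the list was -1.36 early and -1.38 late, against -0.63 and -0.77 for Klf9 itself. Mt1, a metallothionein that binds zinc, had means of 9.56 and 9.90 at 1 and 1.5 hours, 11.13 and 11.86 at 3 and 4 hours, and 9.41 and 9.87 at 18 and 24 hours in its brighter clone. Fkbp5, a chaperone of the glucocorticoid receptor, had means of 7.42 and 8.10, 9.30 and 9.54, and 7.69 and 7.98 at the same times. The early and late Fkbp5 means lie under the empty-spot level of 8.90. Map3k6 (F test adjusted p = 1.58e-06), Cdkn1a (0.00043) and both clones of Mt2 (3.31e-06 and 0.00031) changed along the time course as well (limma). The mean log2 of the list ran from 9.95 to 10.7 in intermediate OA mice. In serum mice it ran from 8.50 to 9.30 early and from 8.50 to 9.82 over all times. The results of this list are without serum subtraction and without the number after L as a block.

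The next question was whether OA mice differed from serum mice in the early stage. Of the 40 clones 17 differed, 11 higher in OA mice (21.3% of all clones were) and 6 lower (17% of all clones were), so that 27.5% and 15% of the members were called. The median difference of the members was 0.01 and that of all clones 0.04. The 9 serum microarrays were deposited in a file layout that none of the 51 OA microarrays has, so that treatment and file layout cannot be told apart. Spots of serum microarrays were also dimmer before normalization, with array medians from 5.73 to 8.39 against 6.75 to 9.36 in OA (log2 intensity). The early serum group is 3 mice, with 1 of them at 1.5 hours. Leaving that mouse out leaves no serum mouse at 1.5 hours. The comparison is then, here and below, that of 1 hour alone, without the OA mice of 1.5 hours. Without that mouse 10 members were called, and without 1 of the 1 hour serum mice (PS1h_2) 11. With median centring in place of quantile normalization 9 members were higher and 8 lower, the share of higher calls over all clones went from 55.5% to 44.9%, and the median difference of the clones brighter than empty spots went from 0.04 to -0.25.

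Fos, the AP-1 subunit that is the best known immediate early gene, was higher in OA mice. At 1 hour the 4 OA mice read 10.10, 10.53, 10.55 and 11.26, and at 1.5 hours the 6 mice ran from 10.17 to 14.01 with a median of 10.60. The early serum mice of Fos read 8.55 and 9.20 at 1 hour and 9.07 at 1.5 hours. Every OA mouse, at every time, lay above every serum mouse, with 27 OA mice from 9.83 to 14.01 and 8 serum mice from 8.55 to 9.20. The early difference was 1.88 ± 0.52 (SE), or 3.67-fold, with a limma adjusted p of 0.0054. With the fitted in place of the image signal the Fos difference was 1.23 and not called (limma adjusted p = 0.14), and at 1.5 hours alone it was 2.02 and not called (adjusted p = 0.095). Fos was also higher in OA than in serum mice at 3 hours (1.53, limma adjusted p = 0.044). The difference was 1.10 at 18 hours, not called (limma adjusted p = 0.25), and 1.43 at 24 hours, with 1 serum mouse. The early difference exceeded the later one by 0.52 (limma unadjusted p = 0.44).

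The highest Fos values rest on 2 microarrays. The mouse P7L2 (1.5 hours) was hybridised once and read 14.01, and the mouse P11L2 (4 hours) read 14.07 on one microarray and 10.53 on the other, whereas the other 49 OA microarrays ran from 9.65 to 11.57. On these 2 microarrays 17 clones lay more than 1 log2 unit above all the other 49, and all 17 were printed in row A or B of their block. Another 28 clones lay more than 1 unit below the other 49, 27 of them in row A or B, which hold 16.4% of the named clones. Fos, printed in row B, is the 1 member among these clones. By less than 1 unit, Cebpg and Fosl1 clone 1, in the same rows, also lay outside the other 49 on both microarrays. Cebpg read 8.25 (P11L2) and 7.83 (P7L2) against a lowest other value of 8.38. Fosl1 clone 1 read 9.35 and 8.96 against a highest other value of 8.37. Without both microarrays the early Cebpg difference, described below, was -1.94 (limma adjusted p = 4.5e-08). Without both microarrays the early Fos difference was 1.59 ± 0.22 (SE, limma adjusted p = 3.84e-06).

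The spot printed next to Fos, a clone of Lancl2, was brighter than Fos in every mouse but P7L2 and was also higher in OA mice. Lancl2 ran from 13.12 to 13.94 in the 27 OA mice and from 11.08 to 11.89 in the 8 serum mice, an early difference of 1.94 against 1.88 for Fos. The study's methods describe a correction for neighbouring spots and removal by hand of spots they inflated, and the deposited intensities hold a value for Fos on every microarray. The part of the adjacent spot in the Fos signal was not tested. Of the 17 members called, 12 had an adjacent spot brighter by more than 1 log2 unit. In 6 of these 12 the adjacent spot differed in the same direction. The brightest of up to 8 adjacent spots was taken, and the same counts over all clones were not made. Members that were not called had such neighbours too, among them Atf3 and Klf1, so these counts do not set the called members apart.

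**Figure D2:**
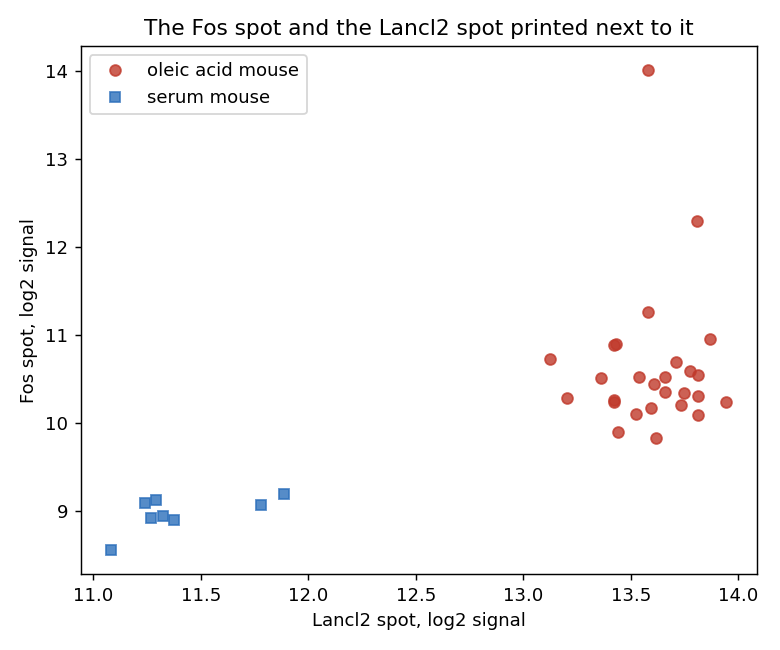
Log2 signal of the Fos spot against that of the Lancl2 spot printed beside it, 1 point per mouse, OA mice as red circles and serum mice as blue squares. The treatments form separate groups on both axes, with Lancl2 from 13.12 to 13.94 in OA mice and from 11.08 to 11.89 in serum mice, and the Fos values of 14.01 and 12.30 belong to the mice P7L2 and P11L2.

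The other AP-1 members gave 1 further call. Jundm2 (now Jdp2), a repressor that pairs with Jun, read 11.80 to 12.59 in the 10 early OA mice and 11.52, 11.62 and 11.74 in the early serum mice, with no overlap. Its difference was 0.55 ± 0.16 (SE, limma adjusted p = 0.0086), and it turned to -0.29 with median centring. Junb was at or under the empty-spot level on the mean, with an early difference of 0.10, and was not called. At later times Junb was lower in OA than in serum mice, by -0.84 at 3 hours and -0.90 at 18 hours (limma adjusted p = 0.024 and 0.041). The OA means of Junb were 8.42 and 8.36 at 1 and 1.5 hours, 8.56 at 3 hours and 8.05 at 18 hours. Serum mice read lower early than later, by -0.97, which was not called (limma adjusted p = 0.18). At 24 hours, with 1 serum mouse, the Junb difference was -1.39. The clones of Fosl1 and Fosl2 differed by -0.15 to -0.62, none called.

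Zfp36l1, which directs AU-rich messages to decay, was higher in OA mice on both of its clones. Clone 2 read 10.05, 10.08, 10.20 and 10.98 at 1 hour, and ran from 9.41 to 10.69 with a median of 9.97 in the 6 mice at 1.5 hours. The serum mice of this Zfp36l1 clone read 7.86 and 7.95 at 1 hour and 7.80 at 1.5 hours, under the empty-spot level. Over all times the OA mice ran from 9.24 to 10.98 and the serum mice from 7.29 to 8.00, without overlap. The early difference of Zfp36l1 clone 2 was 2.32 ± 0.24 (SE, limma adjusted p = 1.65e-08), and set against the empty-spot level it was at least 2.41-fold higher. Zfp36l1 clone 1 read 9.43 to 11.03 in the early OA mice and 8.83, 9.36 and 9.66 in the serum mice, a difference of 1.20 ± 0.30 (SE, limma adjusted p = 0.0025). Clone 1 was not called at 1 hour alone (0.87, limma adjusted p = 0.083), and its groups overlapped.

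The remaining members of the Btg and Zfp36 name group included clones that disagreed. Btg1, an antiproliferative gene of lymphoid cells, was lower in OA mice on its brighter clone (-0.45 ± 0.17, limma adjusted p = 0.043) and higher on the other (0.60 ± 0.17, adjusted p = 0.0052). The brighter Btg1 clone lost its call without any 1 of 7 mice. Zfp367, a zinc finger gene outside the Zfp36 family, read 11.12 to 12.14 in the early OA mice and 9.80, 10.63 and 10.99 in the serum mice. The Zfp367 difference was 0.95 ± 0.29 (SE) or 1.93-fold (limma adjusted p = 0.0095). It was not called at 1 hour alone or without PS1h_2. The Zfp367 call was also lost with median centring (0.56, limma adjusted p = 0.13) and with the fitted signal (0.58, adjusted p = 0.12). Both clones of Btg4, known from oocytes, were called higher (0.48 and 0.43) with every early mouse under the empty-spot level, and no fold is given for them.

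Egr2, a zinc finger factor of the early growth response family, was lower in OA mice. At 1 hour its 4 OA mice read 7.97, 8.42, 8.56 and 8.58, and at 1.5 hours the 6 mice ran from 7.43 to 8.70 with a median of 7.98, all under the empty-spot level. The Egr2 serum mice read 9.83 and 9.88 at 1 hour and 9.60 at 1.5 hours, and over all times no OA mouse (7.04 to 9.37) reached the lowest serum mouse (9.60). The early difference was -1.52 ± 0.38 (SE, limma adjusted p = 0.0023), at least 1.78-fold lower in OA mice when the OA side is set at the empty-spot level. In OA mice Egr2 read 9.06, 9.24 and 9.31 at 24 hours, above all 10 early mice, though limma did not call a change along the time course (adjusted p = 0.50). Nr4a1, an orphan nuclear receptor, was called higher in OA mice (0.42, limma adjusted p = 0.048) with every early mouse of either treatment under the empty-spot level, and the call was lost without any 1 of 17 mice.

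Ier3, a small protein that modulates survival signalling, read 8.33 to 9.73 in the 10 early OA mice with a median of 9.03, and 9.51, 9.89 and 10.22 in the serum mice, with overlap. The Ier3 difference was -0.87 ± 0.24 (SE), 1.83-fold lower in OA mice (limma adjusted p = 0.0044). It was not called at 1 hour alone (-0.41, limma adjusted p = 0.31) or with the fitted signal (-0.85, adjusted p = 0.067). Ier5, a second immediate early response gene, was called higher (0.50, limma adjusted p = 0.028) at values from 6.39 to 7.58 in OA mice and from 6.30 to 6.56 in serum mice, all under the empty-spot level.

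Atf4, the effector of the integrated stress response, was lower in OA mice. It read 8.83, 8.84, 8.94 and 9.51 at 1 hour and 9.18 to 9.85 with a median of 9.33 in the 6 mice at 1.5 hours, against serum values of 10.44 and 10.78 at 1 hour and 10.27 at 1.5 hours. No OA mouse at any time (8.78 to 9.92) reached a serum mouse (10.16 to 11.05). The Atf4 difference was -1.22 ± 0.22 (SE), 2.33-fold lower in OA mice (limma adjusted p = 6.66e-05). Cebpg, a C/EBP protein without an activation domain that pairs with ATF4, moved in the same direction. Its 4 mice at 1 hour read 8.72, 8.85, 9.05 and 9.15 and its 6 mice at 1.5 hours ran from 7.83 to 9.63 with a median of 9.33, against 11.18, 11.19 and 11.00 in the early serum mice. The Cebpg difference was -2.07 ± 0.29 (SE), 4.19-fold lower in OA mice (limma adjusted p = 3.35e-06), and over all times the OA mice (7.83 to 10.58) did not overlap the serum mice (11.00 to 11.70). Cebpa, the C/EBP factor of alveolar and myeloid differentiation, differed by -0.35 and was not called, and Atf3, a stress-induced repressor, differed by 0.12 at values under the empty-spot level.

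Among the 13 Krüppel-like clones 1 was higher and 1 lower in OA mice. Klf9 read 9.85 to 10.76 in the early OA mice and 9.19, 9.76 and 10.23 in the serum mice. The Klf9 difference was 0.59 ± 0.22 (SE, limma adjusted p = 0.032). It was not called at 1 hour alone, without 1 of the 1 hour serum mice or without the OA mouse P2L3. The Klf9 call was also lost with median centring (0.34, limma adjusted p = 0.19) and with the fitted signal (0.49, adjusted p = 0.21). Klf10, an early response gene to transforming growth factor beta, was lower (-0.66 ± 0.13, limma adjusted p = 0.00032), with all early mice under the empty-spot level, and was not called with the fitted signal (-0.69, adjusted p = 0.061). The other 11 Krüppel-like clones differed by -0.33 to 0.38, none called. Both Myc clones were under the empty-spot level and differed by -0.11 and 0.34, neither called.

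**Figure D3:**
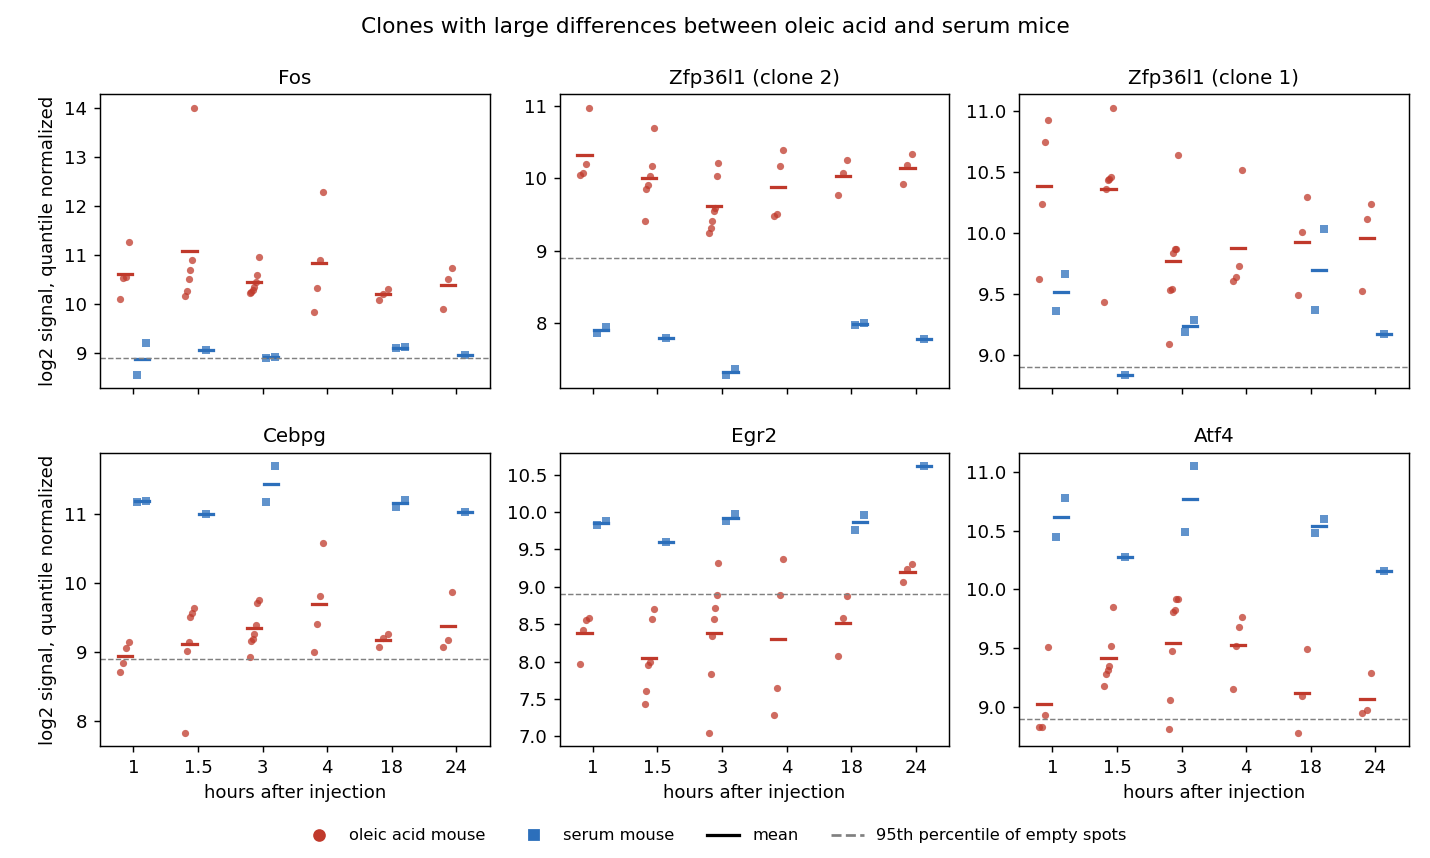
Log2 signal of 6 clones by hours after injection, 1 point per mouse, OA mice as red circles, serum mice as blue squares, bars at group means and the dashed line at the 95th percentile of the empty spots (8.90). Fos and Zfp36l1 clone 2 lie above, and Cebpg, Egr2 and Atf4 below, the serum mice at every time with serum mice, whereas Zfp36l1 clone 1 overlaps.

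**Figure D4:**
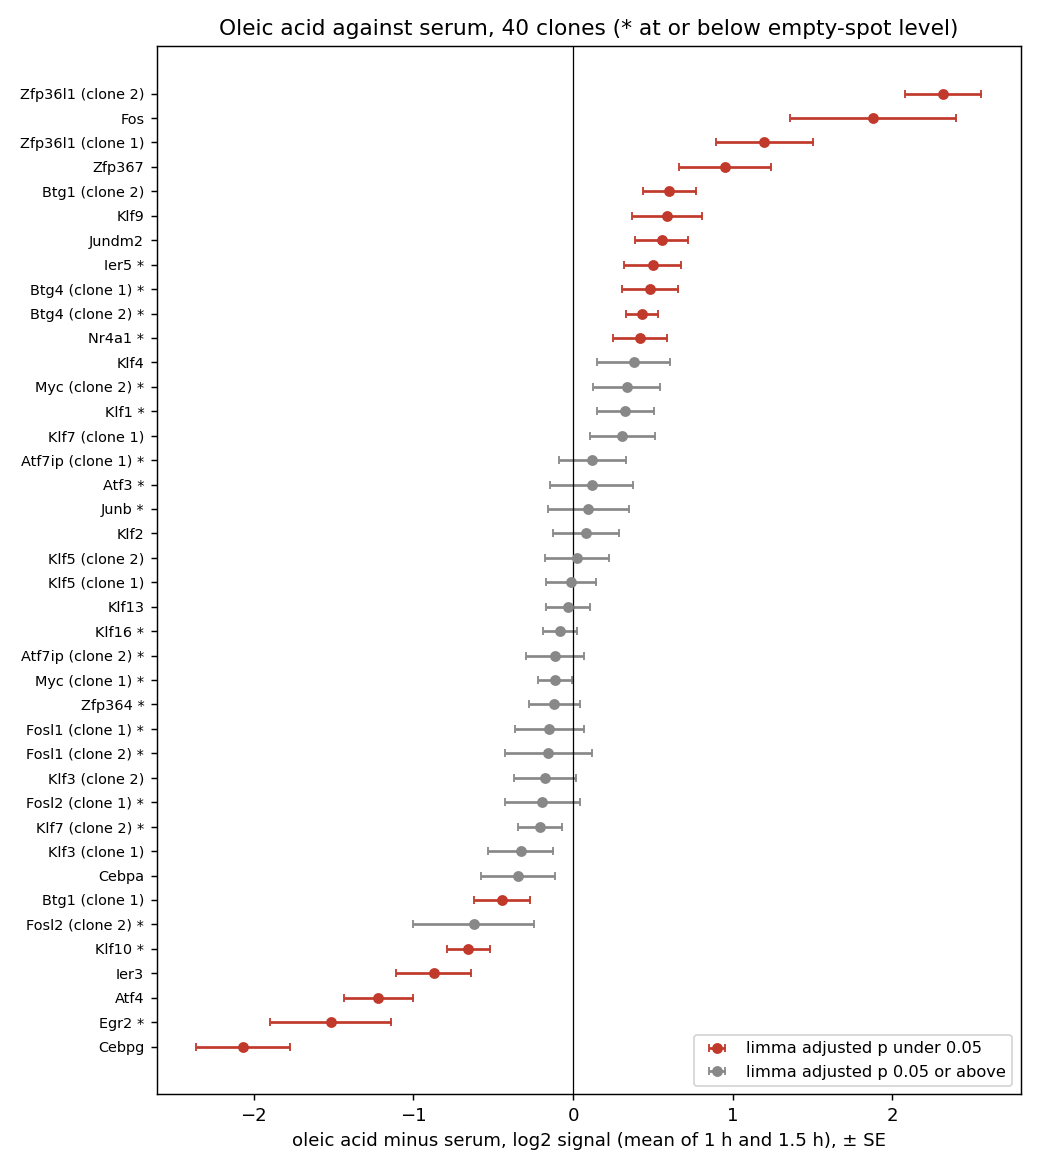
Log2 difference between OA and serum mice in the early stage (mean of 1 and 1.5 hours) with its standard error for the 40 clones, ordered by size, red where limma called the clone and an asterisk where the clone is at or below the empty-spot level. The range runs from -2.07 for Cebpg to 2.32 for Zfp36l1 clone 2, with 11 red points to the right and 6 to the left of 0.

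Over all times, every OA mouse lay above every serum mouse for 2 members (Fos and Zfp36l1 clone 2), against 7.62% of all clones, and below for 4 (Atf4, Cebpg, Egr2 and Klf10), against 5.08%. Whether the difference between OA and serum mice was larger early than at 3, 18 and 24 hours was tested in the same fit, and limma called 0 clones of 7625, with 1 member (Junb) and 649 clones at an unadjusted p under 0.05. Averaged over the 5 times that have serum mice, 25 members and 4700 clones differed between treatments. Serum mice alone, early against later, gave 0 members and 0.0262% of all clones, with 3 members and 825 clones at an unadjusted p under 0.05.

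Other genes of the pathway were read on the same contrast. Among 33 clones of 26 other immediate early and feedback genes, 7 were higher and 2 lower in early OA mice, against 21.3% higher and 17% lower over all clones. Ctgf, a matricellular protein (1.05, limma adjusted p = 0.00065), and Dusp1, the phosphatase that ends MAP kinase signalling (1.03, adjusted p = 0.010), were higher, and Ctgf also changed along the OA time course (limma F test adjusted p = 0.017). Hbegf, a ligand of the epidermal growth factor receptor, and 1 clone of Ccl3, a chemokine, were called higher, and 1 clone of the transcription factor Irf1 was called lower, with group means under the empty-spot level in both treatments. The second Ccl3 clone differed by -0.09 and the other Irf1 clones by -0.19 to 0.01, none called. Among 39 clones of 24 upstream kinases and regulators 6 were higher and 8 lower, against the same shares of all clones. Both clones of Map3k1 and 1 clone of Map2k1, which encodes MEK1, were called higher with group means under the empty-spot level in both treatments, and the other Map2k1 clone differed by 0.13 and was not called. For Nras, a small GTPase, 1 dim clone was called lower (-1.26, limma adjusted p = 7.3e-05), while its other clones differed by 0.19 and 0.49 and were not called.

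The whole lung was sampled, so fewer cells of a type and less RNA per cell cannot be told apart. Markers of other cell types held the following calls in the early stage, where 21.3% of all clones were higher and 17% lower in OA mice. Of 7 macrophage clones 3 (Chi3l3, Mrc1 and Emr1) were higher and 0 lower in OA mice. Their summed level (mean log2 of the list) was 7.93 to 8.34 in OA and 7.24 to 7.47 in serum. Both ranges lie under the empty-spot level of 8.90. Brighter than that level on the mean over all mice were 1 of the 7 macrophage clones and 1 of the 16 T cell clones. Of 10 endothelial clones 2 were higher and 4 lower (9.09 to 9.67 and 9.62 to 9.79), and of 6 neutrophil clones 0 were higher and 2 lower (8.68 to 10.20 and 9.17 to 9.41). For 4 epithelial clones 0 were called (9.86 to 10.33 and 10.12 to 10.22), and the other lists held calls in both directions, with 2 higher and 2 lower of 16 T cell clones, 4 and 1 of 20 B cell clones and 2 and 2 of 15 erythroid clones. The part of these cell types in the results above was not tested.

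The precision of single clones was limited. Over the members, the median SD between 2 microarrays of a mouse was 0.26 and that between mice of a time point 0.30. In 19 of 40 clones the first was the larger. The first is the SD of a single microarray. The second is that of mouse means, over 2 microarrays in 23 of the 27 OA mice, and holds part of the spread between microarrays. The 2 are thus not like measures. Where a gene had 2 clones, these had the same sign in 7 of 10 genes early against intermediate, in 6 of 10 late against intermediate and in 5 of 10 for OA against serum.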

How the data were processed

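Lung RNA of 27 OA and 8 serum mice was read on 60 nylon microarrays of 9984 spots. The authors deposited the image intensity of each spot, quantified with Bzscan2, and a table of log2 values that the authors had quantile-normalized. Per the study's methods, sample data were corrected for neighbouring spots and local background before normalization; whether the deposited intensities were taken before or after that step is not given in the sources used here. Here the intensity at constant spot diameter, with a floor of 1, was log2-transformed, quantile-normalized over 60 microarrays and averaged per mouse, so that OA and serum mice share 1 scale. The authors' log2 values of OA microarrays served as an alternative. limma 3.58.1 (R 4.3.3) was fitted to 7625 named clones, in 27 OA mice for the 6 time points and in 35 mice for OA against serum, with Benjamini-Hochberg adjustment at 5%. The number of microarrays limits the precision. 1 OA microarray of an unresolved mouse was left out, and mouse P7L3, whose labels conflict, was taken as 3 hours. The 2 serum microarrays at 1.5 hours were taken as 1 mouse, after the study's design. Alternatives were the fitted signal, median centring, the floor, bright clones alone, serum subtraction, the number after L as a block, and leaving out mice. Members and gene lists were chosen with earlier results of these data known. Described in full were members called in any test and classic immediate early genes brighter than empty spots. Genes of other lists were named when called, at most 5 per list in order of p. A called gene of the kinase list is not reported here.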

Additional observations from a re-analysis of the deposited data

Results flagged for a closer look

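Among 92 groups of OA mice checked (described clones at time points with 4 to 10 mice), 8 held a mouse far from the others, and chance alone gives about 1 in 20. Fos in mouse P7L2 at 1.5 hours read 14.01 against 10.17 to 10.89 in the other mice. Cebpg in the same mouse, on the same microarray, read 7.83 against 9.02 to 9.63. Atf4 in mouse P3L2 at 1 hour read 9.51 against 8.83 to 8.94. Zfp36l1 clone 2 in mouse P2L2 at 1 hour read 10.98 against 10.05 to 10.20, and Klf3 clone 2 in that mouse read 8.83 against 8.96 to 8.98. Zfp36l1 clone 1 in mouse P12L3 at 4 hours read 10.52 against 9.61 to 9.72. Klf13 in mouse P1L3 at 1.5 hours read 9.81 against 10.14 to 10.26, and Btg4 clone 2 in mouse P5L3 at 1.5 hours read 7.78 against 8.00 to 8.10.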

How the results depend on the processing

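The counts of members called were 3 over the 6 time points, 2 early against intermediate, 5 late against intermediate, 0 for 1.5 hours against 1 hour, 17 for OA against serum and 0 for serum early against later. With the fitted signal they were 0 over the time points (62 of all clones) and 2 late against intermediate (79). With serum subtraction they were 17 over the time points (4264 of all clones), 13 early (2756), 9 late (2042) and 3 for 1.5 hours against 1 hour (1282). Serum means of 1 or 2 mice enter that setting as constants, so their spread is left out and its p-values are too small. With 3 stages 7 members were called (484 of all clones), and with median centring 4 early (256). With the number after L as a block 1 was called early and 1 late (64 and 40 of all clones). With bright clones alone 3 were called late (119 of 2687 bright clones) and 11 for OA against serum (968 of 2687). Without the 2 microarrays with the high Fos spot, a setting chosen after seeing the data, 4 were called early (172 of all clones). At 1 hour alone, which is also the setting without the 1.5 hours serum mouse, 10 were called for OA against serum (2290 of 7625 clones). At 1.5 hours alone the serum side is 1 mouse, and no count is given. Leaving out 1 mouse at a time gave 3 to 3 over the time points, 2 to 4 early, 3 to 5 late, 0 to 0 for 1.5 hours against 1 hour, 10 to 18 for OA against serum and 0 to 1 for serum early against later. Of 24 comparisons of named clones, 20 reversed under no setting. Jundm2 turned to -0.29 in OA against serum with median centring, and serum subtraction turned Klf9 late minus intermediate to 0.42 and Atf7ip clone 2 to -0.018 early and -0.26 late. The cause was not tested. 12 of the 24 kept their call without any 1 mouse.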

Other observations

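Among 20 clones of B cell markers, 5 were called higher early than in the intermediate stage (1.01% of all clones were), and the other 15 were not called. For Ms4a1, which encodes CD20, 2 of 4 clones were called higher (1.08 and 0.50, limma adjusted p = 0.00046 and 0.010), and the other 2 differed by 0.23 and -0.26. The means of all 4 Ms4a1 clones lie under the empty-spot level.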
